A study of Homo sapiens with 6 samples.

Results

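The enzymes and carriers that take glucose through glycolysis, the pentose phosphate pathway and the tricarboxylic acid (TCA) cycle were examined in SW480 cells, a human colon adenocarcinoma line, by RNA sequencing after exposure to MPM-1. MPM-1 is a fluorescent small molecule made as a probe of mitochondria and appears in the sample labels as WT4. Members were taken by gene symbol from a fixed list of 57 genes, all 57 of which were among the 12982 genes of the expression table. The list spans glucose and lactate carriers, the glycolytic enzymes with their PFKFB regulators, lactate dehydrogenase, the pentose phosphate enzymes, the pyruvate dehydrogenase complex with its kinases, the anaplerotic and malic enzymes and the TCA cycle enzymes. The control group held 3 libraries of SW480 cells treated with DMSO, and the MPM-1 group held 3 libraries of the same line treated with MPM-1, both for 24 h in DMEM with serum. Both groups carry the genotype label WT, and the concentration of MPM-1 behind these libraries is not given in the sources used here. Nothing states whether the replicates were separate cultures, so the p-values measure the spread between these libraries, which may be technical.

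Glycolysis splits glucose into pyruvate in the cytosol and yields ATP and NADH, and lactate dehydrogenase returns NADH to NAD+ by turning pyruvate into lactate. The pentose phosphate pathway branches off after the hexokinase step and supplies NADPH and ribose 5-phosphate. Pyruvate that enters the mitochondrion is oxidised by the pyruvate dehydrogenase complex to acetyl-CoA, which citrate synthase feeds into the TCA cycle. Colorectal cancer cells, like many tumour cells, are known for strong expression of glycolytic genes alongside an active TCA cycle.

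Total counts ran from 32095456 to 40269820 in the DMSO libraries and from 31733667 to 35403841 in the MPM-1 libraries, and the members received between 126 and 270554 counts in any library. The first principal component of all genes (72.8% of the variance) split the libraries by treatment, while the second held 9.48% and set MPM-1 replicate 1 apart from the other MPM-1 libraries. The 13 mitochondrial DNA-encoded genes took 8.28% to 9.11% of the counts in DMSO and 1.95% to 2.35% in MPM-1, and their part in the results below was not tested beyond refitting without them. Of 12 colorectal epithelial markers 11 were in the table, of which KRT8, KRT18, KRT19, CDH1, LGALS4 and ELF3 rose (log2 fold changes 0.42 to 1.58), VIL1, CDX1, KRT20 and CDX2 fell (-0.88 to -2.20) and EPCAM did not pass. Of the other markers, 1 of 5 leukocyte, 2 of 6 fibroblast and 0 of 4 endothelial genes were in the table. The dividing-cell markers MKI67 (-2.17), TOP2A (-1.30) and CCNB1 (-1.99) were also lower, and their part in the results was not tested. In bulk RNA, fewer cells of a kind and less RNA per cell cannot be told apart.

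Across the module more genes fell than rose after MPM-1. A differentially expressed gene (DEG) here combines an adjusted p under 0.01 (edgeR quasi-likelihood fit, Benjamini-Hochberg over all 12982 genes) with a log2 fold change no smaller than 1 in either direction. SLC2A3, HK2, ME1 and IDH1 rose and ALDOC, PDK3 and IDH2 fell by this definition, which makes 12.3% of the members against 14.3% of all genes tested. Higher DEGs were 5.58% and lower DEGs 8.75% of all genes. At an adjusted p under 0.05 without a fold limit, 15 members rose, 29 fell and 13 did not pass. These were 26.3% and 50.9% of the members, beside 27.7% and 28.8% of all genes, and 56.5% of all genes passed in either direction. The CPM values (read counts scaled to library size with TMM factors) of the 3 DMSO and 3 MPM-1 libraries did not overlap for 47 members (82.5%), compared with 64.3% of all genes. The members were more highly expressed and more precisely measured than the typical gene. Their median level in DMSO was at percentile 88.5 of all genes, and their median standard error was 0.0819 beside 0.125. Shares without a fold limit depend on this precision, and its part in them was not tested.

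The median log2 fold change of the members was -0.23, compared with -0.026 over all genes. Log2 fold changes were below 0 for 39 members, and 51.6% of all genes had one below 0. The middle part of the member distribution, between its quartiles, ran from -0.55 to 0.25, and standard errors lay between 0.0614 and 0.207. With scaling by library size alone, 9 members rose, 36 fell, 3 were higher DEGs and 6 were lower DEGs. The median of all genes moved to -0.18 with that scaling. Strand-specific counting is not stated, and 12 members overlap a gene on the other strand (SLC16A3, PFKM, TPI1, PFKFB2, RPE, MPC2, DLD, PC, IDH3A, IDH3G, SUCLA2 and MDH1) and 4 a gene on the same strand (ALDOA, ALDOC, PGK1 and ENO2), so their values are uncertain to the extent that reads were shared.

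**Figure D1:**
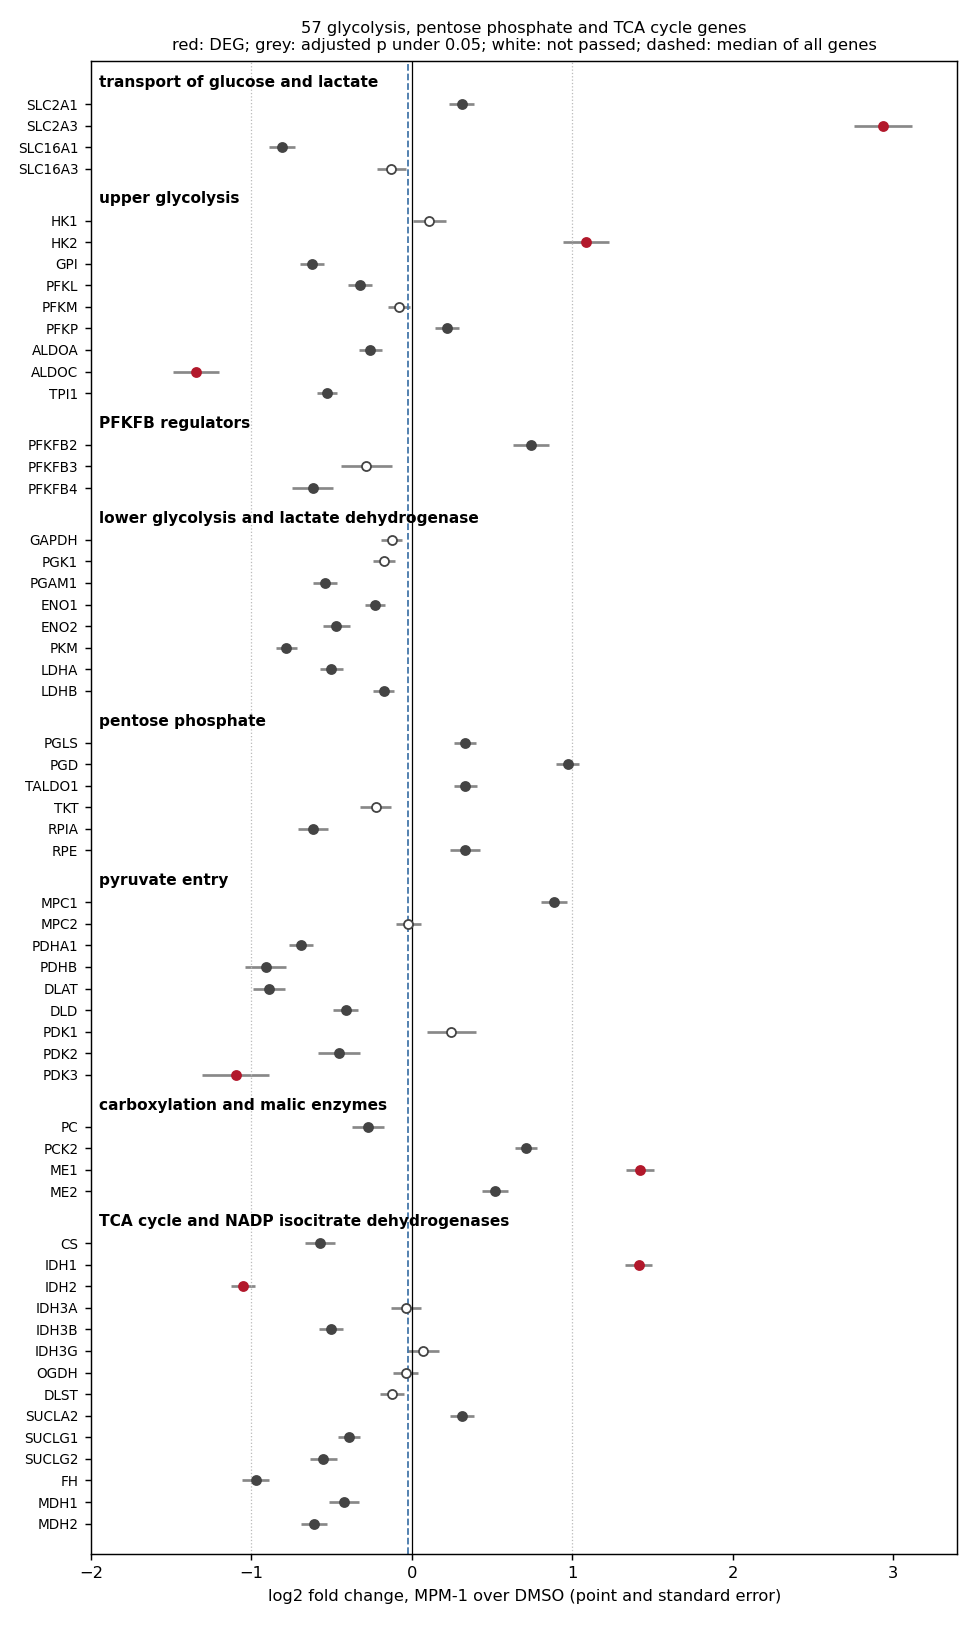
Log2 fold change (MPM-1 over DMSO, horizontal axis) with its standard error for the 57 members, grouped by role, from 3 libraries per treatment. Red points are the 7 DEGs, grey points the other members at an adjusted p under 0.05, white points those that did not pass, and the dashed line is the median of all genes at -0.026.

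Among the 4 carriers, the glucose transporters SLC2A1 and SLC2A3 rose, the lactate carrier SLC16A1 fell, and SLC16A3 did not pass. SLC2A3 encodes GLUT3, a high-affinity glucose transporter best known from neurons (ENSG00000059804, chr12:7919230-7936275, minus strand, GRCh38, GENCODE 29). SLC2A3 stood at 36.9, 24.5 and 24.4 CPM in the DMSO libraries and at 241, 178 and 237 CPM in the MPM-1 libraries. The lowest MPM-1 library was thus far above the highest DMSO library, and the difference exceeded the spread within either group. The means were 28.6 ± 7.23 and 218 ± 35.4 CPM (SD, n = 3 each), a log2 fold change of 2.94 (SE 0.183, edgeR adjusted p = 2.49e-06) and the highest of the 57 members.

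SLC2A1 encodes GLUT1, the broadly expressed basal glucose transporter. Its CPM values were 737, 765 and 734 in DMSO and 886, 865 and 1024 in MPM-1. All MPM-1 libraries were higher, with replicate 3 the highest, and the log2 fold change was 0.31 (SE 0.0783, edgeR adjusted p = 0.00739). With scaling by library size alone it was 0.16 and no longer passed (edgeR adjusted p = 0.0979), nor did it pass in 3 limma fits to FPKM (0.16). SLC16A1 encodes MCT1, a proton-coupled carrier of lactate and pyruvate. It had 330.1, 394 and 364 CPM in DMSO and 205, 209 and 207 CPM in MPM-1, with the MPM-1 libraries close together and below every DMSO library. It fell by 0.81 on the log2 scale (SE 0.0805, edgeR adjusted p = 3.38e-05). SLC16A3, which encodes the lactate exporter MCT4, averaged 280.0 ± 11.8 CPM in DMSO and 256 ± 26.7 CPM in MPM-1 with overlapping libraries (log2 fold change -0.13, edgeR adjusted p = 0.246), and passed with scaling by library size alone (-0.28, edgeR adjusted p = 0.0274).

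Of the 9 upper glycolysis genes, HK2 and PFKP rose, GPI, PFKL, ALDOA, ALDOC and TPI1 fell, and HK1 and PFKM did not pass. The group median was -0.26. HK2 encodes the inducible hexokinase 2, which phosphorylates glucose and binds the outer mitochondrial membrane (ENSG00000159399, chr2:74833981-74893359, plus strand, GRCh38). It had 42.7, 46.3 and 56.9 CPM in DMSO and 118, 84.2 and 108 CPM in MPM-1. The groups did not overlap, and MPM-1 replicate 2 was the lowest of its group. The means were 48.6 ± 7.40 and 103 ± 17.3 CPM, a log2 fold change of 1.09 (SE 0.141, edgeR adjusted p = 0.000171). Without MPM-1 replicate 1 the log2 fold change was 0.9964 and with scaling by library size alone 0.93, both just under the DEG limit with adjusted p still under 0.01.

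The 250 bases before an annotated HK2 start, in the first intron of the longer transcript, hold the E-box letters CACGTG at 2 places. They are shown because HK2 was the member of the first steps of glycolysis that rose most, and the same letters occur before PDHB, which fell. RefSeq, on GRCh38.p14, gives these bases at chr2:74834920-74835169 on the plus strand, written 5′ to 3′ with CACGTG in capitals. The 2 matches begin 194 and 149 bases before the start.

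HK2: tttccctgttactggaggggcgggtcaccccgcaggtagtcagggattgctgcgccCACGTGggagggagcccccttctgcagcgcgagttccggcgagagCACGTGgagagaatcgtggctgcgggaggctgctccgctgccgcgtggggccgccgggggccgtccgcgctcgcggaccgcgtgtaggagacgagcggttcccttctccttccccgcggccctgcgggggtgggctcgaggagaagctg

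HK1, the constitutive hexokinase, averaged 131 ± 17.0 CPM in DMSO and 141 ± 9.17 CPM in MPM-1 with overlapping libraries (log2 fold change 0.11, edgeR adjusted p = 0.392, and -0.0416 with scaling by library size alone). ALDOC encodes aldolase C, the isoform typical of brain (ENSG00000109107, chr17:28573115-28577264, minus strand, GRCh38). Its CPM values were 181, 157 and 156 in DMSO and 79.4, 51.0 and 64.2 in MPM-1. Every MPM-1 library was lower than every DMSO library by a wide margin. The log2 fold change was -1.34 (SE 0.145, edgeR adjusted p = 5.5e-05), the lowest of the members. ALDOC overlaps AC005726.1 on the same strand, a gene with 37 to 135 counts per library (log2 fold change -0.37, edgeR adjusted p = 0.387).

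ALDOA, the main aldolase of most tissues, had 1616, 1425 and 1456 CPM in DMSO and 1269, 1195 and 1294 CPM in MPM-1. The groups did not overlap, and the log2 fold change was -0.26 (SE 0.0711, edgeR adjusted p = 0.0115). Without MPM-1 replicate 2 it was -0.20 and did not pass (edgeR adjusted p = 0.0655). Glucose-6-phosphate isomerase (GPI) fell by 0.62 on the log2 scale and triosephosphate isomerase (TPI1) by 0.53. Of the 3 phosphofructokinase subunits, which make the enzyme of the committed step, liver-type PFKL fell by 0.32, platelet-type PFKP rose by 0.22 and muscle-type PFKM had a log2 fold change of -0.08 that did not pass (edgeR adjusted p = 0.356). PFKP did not pass without DMSO replicate 2 (log2 fold change 0.22), DMSO replicate 3 (0.18) or MPM-1 replicate 3 (0.19), nor with scaling by library size alone (0.0667, edgeR adjusted p = 0.435) or in any of 3 limma fits to FPKM (0.0806 to 0.0815). PFKM passed with scaling by library size alone (-0.23, edgeR adjusted p = 0.0207) and in the same limma fits.

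The 3 PFKFB genes encode bifunctional enzymes that make and remove fructose 2,6-bisphosphate, an activator of phosphofructokinase. PFKFB2, the isoform known from heart, had 22.2, 21.3 and 21.8 CPM in DMSO and 41.5, 35.9 and 31.6 CPM in MPM-1. It rose by 0.74 on the log2 scale (SE 0.111, edgeR adjusted p = 0.000397) with no overlap. In limma on log2(FPKM + 1) it was 0.38, and without a filter on low values it no longer passed (limma adjusted p = 0.0502). PFKFB4 had 16.04, 18.4 and 18.03 CPM in DMSO and 12.1, 11.02 and 10.99 CPM in MPM-1. It fell by 0.62 (SE 0.126, edgeR adjusted p = 0.00241), so the isoforms moved in opposite directions at low levels. PFKFB3, the isoform with high kinase activity, had a log2 fold change of -0.28 that did not pass (edgeR adjusted p = 0.156). It was -0.44 and passed without MPM-1 replicate 1 (edgeR adjusted p = 0.0282) and with scaling by library size alone (edgeR adjusted p = 0.034), and it was -0.10 without MPM-1 replicate 2.

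All 8 genes of lower glycolysis and lactate dehydrogenase had a log2 fold change below 0. PGAM1, ENO1, ENO2, PKM, LDHA and LDHB fell, GAPDH and PGK1 did not pass, and none rose. The group median was -0.35, and its 8 genes held most of the counts of the whole module. GAPDH, which oxidises glyceraldehyde 3-phosphate and is often used as a reference gene, had 7042, 6115 and 6792 CPM in DMSO and 6375, 6026 and 5879.9 CPM in MPM-1. The groups overlapped, and the log2 fold change was -0.13 (SE 0.0666, edgeR adjusted p = 0.134). Without DMSO replicate 2 it was -0.18 (edgeR adjusted p = 0.0276) and with scaling by library size alone -0.28 (edgeR adjusted p = 0.00203), both past the threshold.

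PKM encodes the pyruvate kinase of most proliferating cells, which makes the last ATP of glycolysis. PKM had 2863, 2831 and 2588 CPM in DMSO and 1672, 1541 and 1598 CPM in MPM-1. The 2 groups lay well apart, and PKM fell by 0.78 on the log2 scale (SE 0.0662, edgeR adjusted p = 1.35e-05), the lowest value of this group. LDHA encodes the subunit that favours lactate formation. LDHA had 839, 889 and 929 CPM in DMSO and 598, 631 and 647 CPM in MPM-1, again without overlap, and fell by 0.50 (SE 0.0696, edgeR adjusted p = 0.000252). LDHB, the subunit typical of oxidative tissues, fell by 0.18 (edgeR adjusted p = 0.0401). LDHB did not pass without DMSO replicate 2 (log2 fold change -0.18), DMSO replicate 3 (-0.16), MPM-1 replicate 2 (-0.14) or MPM-1 replicate 3 (-0.13).

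The phosphoglycerate mutase PGAM1 fell by 0.54 on the log2 scale. Of the enolases, the ubiquitous ENO1 fell by 0.23 and the neuronal ENO2 by 0.47. ENO1 did not pass without MPM-1 replicate 2 (log2 fold change -0.19) or MPM-1 replicate 3 (-0.19). PGK1, the phosphoglycerate kinase, had CPM values without overlap but an edgeR adjusted p of 0.0578 (log2 fold change -0.17). PGK1 passed with scaling by library size alone (-0.32, edgeR adjusted p = 0.00341) and in 3 limma fits to FPKM (-0.32 to -0.33). GAPDH has 62 named pseudogenes in GENCODE 29 and 21 members have at least 1, none of which is a row of the table. Whether reads from these pseudogenes were counted to the parent genes was not tested.

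**Figure D2:**
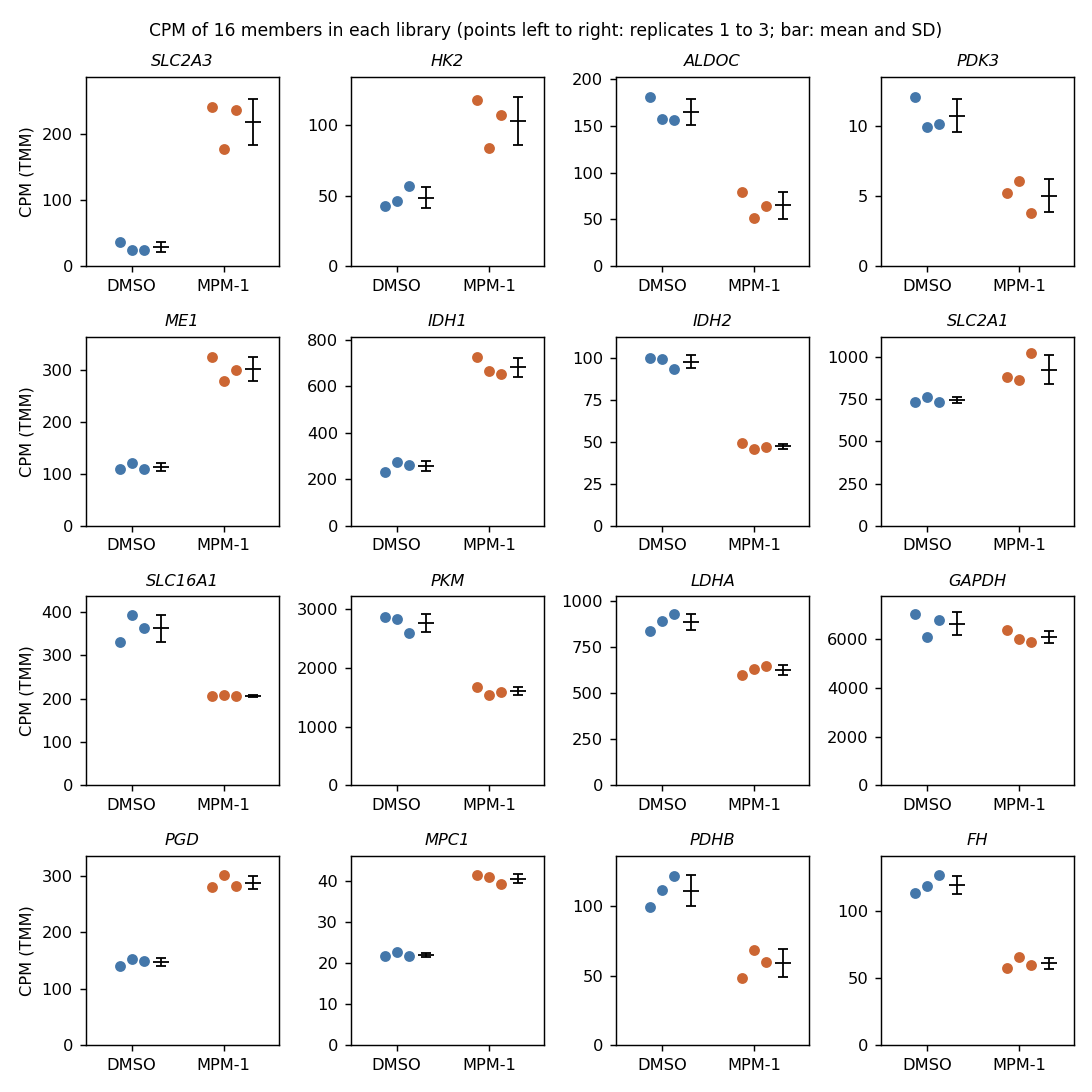
CPM with TMM scaling (vertical axis, from 0) of 16 members in each of the 3 DMSO and 3 MPM-1 libraries, with the mean and SD beside the points. SLC2A3, HK2, ME1, IDH1, SLC2A1, PGD and MPC1 are higher in every MPM-1 library, GAPDH overlaps, and the other 8 are lower in every MPM-1 library.

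In the pentose phosphate pathway the direction was mostly upward: PGLS, PGD, TALDO1 and RPE rose, RPIA fell and TKT did not pass. The group median was 0.33, and CPM did not overlap for any of the 6 genes. PGD encodes 6-phosphogluconate dehydrogenase, the second NADPH-forming enzyme of the oxidative branch. PGD had 140.1, 153 and 148 CPM in DMSO and 279.9, 302 and 283 CPM in MPM-1. The MPM-1 libraries stood close together and far above the DMSO libraries, and PGD rose by 0.97 on the log2 scale (SE 0.0738, edgeR adjusted p = 7.24e-06), just under the fold limit of a DEG. Without DMSO replicate 2 the log2 fold change was 1.00 and without MPM-1 replicate 1 1.01, both past that limit.

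The 250 bases before the PGD start hold 1 match to TGACNNNGC, the core letters of the antioxidant response element, on the reverse strand. The bases are shown because PGD rose most in its group. TGACNNNGC was found for 12 members, among them ME1 and IDH1, which rose, and ALDOC, PFKL, PKM and SUCLG1, which fell, and for 22.6% of the members with a window against 19.5% of all genes with one. RefSeq places these bases at chr1:10398814-10399063 on the plus strand of GRCh38.p14, with the match in capitals starting 201 bases before the start.

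PGD: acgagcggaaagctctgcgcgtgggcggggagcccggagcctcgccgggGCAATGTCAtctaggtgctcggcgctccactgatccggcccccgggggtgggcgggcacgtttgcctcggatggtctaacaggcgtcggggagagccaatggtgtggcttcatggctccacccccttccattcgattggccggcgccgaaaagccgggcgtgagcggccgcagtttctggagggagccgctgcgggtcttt

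PGLS, the lactonase before PGD, and TALDO1, the transaldolase of the non-oxidative branch, each rose by 0.33 on the log2 scale, as did the epimerase RPE. With scaling by library size alone none of these 3 genes passed at an adjusted p under 0.05 (log2 fold changes 0.18, 0.18 and 0.18). TALDO1 and RPE also did not pass in 3 limma fits to FPKM, and PGLS in those with a mean of at least 1 FPKM. RPIA, the isomerase that makes ribose 5-phosphate, had 27.3, 29.4 and 29.2 CPM in DMSO and 18.2, 19.7 and 18.2 CPM in MPM-1. All its MPM-1 libraries were lower, and it fell by 0.62 (SE 0.0952, edgeR adjusted p = 0.000474). TKT, the transketolase, averaged 1400.1 ± 166 CPM in DMSO and 1198 ± 105 CPM in MPM-1 (log2 fold change -0.23, edgeR adjusted p = 0.0739). TKT passed without DMSO replicate 3 (log2 fold change -0.29, edgeR adjusted p = 0.0484), with scaling by library size alone (-0.37, edgeR adjusted p = 0.0037) and in 3 limma fits to FPKM (-0.34). Its log2 fold change was -0.12 without DMSO replicate 1 and -0.13 without MPM-1 replicate 2.

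Among the 9 genes of pyruvate entry, MPC1 rose, PDHA1, PDHB, DLAT, DLD, PDK2 and PDK3 fell, and MPC2 and PDK1 did not pass. The group median was -0.45. MPC1 and MPC2 encode the 2 subunits of the mitochondrial pyruvate carrier. MPC1 had 21.7, 22.6 and 21.6 CPM in DMSO and 41.3, 41.0 and 39.3 CPM in MPM-1, with little spread in either group. It rose by 0.88 on the log2 scale (SE 0.0826, edgeR adjusted p = 2.36e-05). MPC2 averaged 58.8 ± 1.55 and 58.0 ± 4.20 CPM with overlapping libraries (log2 fold change -0.02, edgeR adjusted p = 0.834, and 0.05 without MPM-1 replicate 3).

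The 4 members that encode E1, E2 and E3 of the pyruvate dehydrogenase complex fell. PDHA1 and PDHB, the E1 subunits, fell by 0.69 and 0.91 on the log2 scale, DLAT (E2) by 0.89 and DLD (E3) by 0.41. PDHX, the E3-binding protein of the same complex, is no member of the module and rose by 0.39 (edgeR adjusted p = 0.00429), as did PDP1, a phosphatase that activates the complex, by 0.29 (edgeR adjusted p = 0.0136). PDPR, the regulatory subunit of that phosphatase, fell by 0.68 (edgeR adjusted p = 0.00201), and the other phosphatase PDP2 had a log2 fold change of -0.07 that did not pass. PDHB had 99.6, 112 and 122 CPM in DMSO and 48.6, 68.7 and 60.1 CPM in MPM-1, with the groups apart. Without MPM-1 replicate 2 its log2 fold change was -1.01 and with scaling by library size alone -1.06, both past the DEG limit, as was DLAT at -1.04 with that scaling. The 250 bases before the PDHB start, at chr3:58433833-58434082 on the minus strand (RefSeq, GRCh38.p14), hold CACGTG 236 bases before the start and are given for comparison with those of HK2.

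PDHB: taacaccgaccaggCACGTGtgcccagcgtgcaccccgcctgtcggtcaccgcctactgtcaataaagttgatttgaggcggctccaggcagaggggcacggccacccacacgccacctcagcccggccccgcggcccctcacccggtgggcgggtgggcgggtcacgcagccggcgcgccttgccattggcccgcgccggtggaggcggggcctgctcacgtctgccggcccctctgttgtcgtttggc

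The PDK genes encode kinases that inactivate pyruvate dehydrogenase by phosphorylation. PDK3 (ENSG00000067992, chrX:24465221-24541862, plus strand, GRCh38) had 12.1, 9.98 and 10.1 CPM in DMSO and 5.19, 6.11 and 3.75 CPM in MPM-1. The groups did not overlap, and PDK3 fell by 1.098 on the log2 scale (SE 0.207, edgeR adjusted p = 0.00154), the widest standard error of the members. Without MPM-1 replicate 3 the log2 fold change was -0.91, under the DEG limit (edgeR adjusted p = 0.00529). PDK2 fell by 0.45 (edgeR adjusted p = 0.0145) and did not pass without MPM-1 replicate 3 (log2 fold change -0.40, edgeR adjusted p = 0.0571). PDK1 averaged 21.1 ± 3.92 CPM in DMSO and 25.1 ± 3.13 CPM in MPM-1 with overlapping libraries (log2 fold change 0.25, edgeR adjusted p = 0.196).

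The 4 carboxylation and malic enzymes had the highest median of the role groups, 0.62: ME1, ME2 and PCK2 rose and PC fell. ME1 encodes the cytosolic malic enzyme, which turns malate into pyruvate and yields NADPH (ENSG00000065833, chr6:83210389-83431071, minus strand, GRCh38). ME1 had 108, 121 and 109 CPM in DMSO and 325, 279 and 300.3 CPM in MPM-1. The groups were far apart, with means of 113 ± 7.19 and 302 ± 23.2 CPM and a log2 fold change of 1.42 (SE 0.0861, edgeR adjusted p = 2.16e-06).

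ME1 ranked second among the 57 members by log2 fold change, and the bases before its start are shown because they hold TGACTCA, the AP-1 letters, which in this window also form a match to TGACNNNGC. RefSeq gives them at chr6:83431052-83431301 on the minus strand of GRCh38.p14. TGACTCA is in capitals and begins 137 bases before the start.

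ME1: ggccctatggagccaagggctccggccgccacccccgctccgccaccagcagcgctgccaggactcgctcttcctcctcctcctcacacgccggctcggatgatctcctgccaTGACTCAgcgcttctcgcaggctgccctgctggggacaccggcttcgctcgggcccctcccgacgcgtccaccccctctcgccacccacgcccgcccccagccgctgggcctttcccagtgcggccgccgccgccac

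PCK2 encodes the mitochondrial phosphoenolpyruvate carboxykinase. PCK2 had 104, 107 and 104 CPM in DMSO and 173, 166 and 178 CPM in MPM-1, with narrow groups that did not overlap. It rose by 0.71 on the log2 scale (SE 0.0691, edgeR adjusted p = 2.9e-05). ME2, the mitochondrial NAD-linked malic enzyme, rose by 0.52. PC, the pyruvate carboxylase that replenishes oxaloacetate, had 39.4, 31.8 and 36.7 CPM in DMSO and 30.4, 29.9 and 28.7 CPM in MPM-1. Its groups were close but did not overlap, and it fell by 0.28 (SE 0.0994, edgeR adjusted p = 0.0376). PC did not pass without DMSO replicate 1 (log2 fold change -0.21), DMSO replicate 3 (-0.26) or any 1 of MPM-1 replicates 1 (-0.28), 2 (-0.26) and 3 (-0.24).

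Of the 14 genes of the TCA cycle with the NADP isocitrate dehydrogenases, IDH1 and SUCLA2 rose, CS, IDH2, IDH3B, SUCLG1, SUCLG2, FH, MDH1 and MDH2 fell, and IDH3A, IDH3G, OGDH and DLST did not pass. The group median was -0.41. IDH1 and IDH2 catalyse the same NADP-linked reaction, from isocitrate to 2-oxoglutarate, in the cytosol and in mitochondria respectively. IDH1 (ENSG00000138413, chr2:208236227-208266074, minus strand, GRCh38) had 232, 274 and 262 CPM in DMSO and 728, 667 and 652 CPM in MPM-1. IDH1 was higher in every MPM-1 library, with a log2 fold change of 1.41 (SE 0.0856, edgeR adjusted p = 2.16e-06).

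IDH2 (ENSG00000182054, chr15:90083045-90102504, minus strand, GRCh38) moved the other way. It had 99.9, 99.3 and 93.1 CPM in DMSO and 48.9, 45.5 and 46.8 CPM in MPM-1. The libraries within each group were close together, and IDH2 fell by 1.05 on the log2 scale (SE 0.0740, edgeR adjusted p = 4.87e-06). Citrate synthase (CS), which starts the cycle, had 223, 259.6 and 226 CPM in DMSO and 172, 145 and 160.1 CPM in MPM-1. All MPM-1 values were lower than all DMSO values, and CS fell by 0.57 (SE 0.0922, edgeR adjusted p = 0.000623).

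Fumarase (FH) had 113, 118 and 127 CPM in DMSO and 57.4, 65.4 and 59.2 CPM in MPM-1. FH fell by 0.97 on the log2 scale (SE 0.0829, edgeR adjusted p = 1.4e-05), close to the DEG limit, which it passed without DMSO replicate 1 or without MPM-1 replicate 2, where the log2 fold change reached -1.01 at its lowest. The malate dehydrogenases MDH1 (cytosolic) and MDH2 (mitochondrial) fell by 0.42 and 0.61. Among the succinyl-CoA ligase subunits, the common SUCLG1 fell by 0.39, the GTP-forming SUCLG2 fell by 0.55 and the ATP-forming SUCLA2 rose by 0.31. With scaling by library size alone SUCLA2 did not pass (log2 fold change 0.16, edgeR adjusted p = 0.0679).

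The NAD-linked isocitrate dehydrogenase has 3 subunits, of which IDH3B fell by 0.50 on the log2 scale while the catalytic IDH3A (-0.04) and the regulatory IDH3G (0.07) did not pass. The sign of IDH3A turned without DMSO replicate 2 (0.0074) or MPM-1 replicate 2 (0.036), and that of IDH3G turned with scaling by library size alone (-0.0846). OGDH and DLST, the E1 and E2 parts of the 2-oxoglutarate dehydrogenase complex, had log2 fold changes of -0.04 and -0.13 (edgeR adjusted p = 0.707 and 0.171). DLST passed with scaling by library size alone (-0.28, edgeR adjusted p = 0.00881) and in 3 limma fits to FPKM (-0.27 to -0.28), and OGDH reached 0.026 without MPM-1 replicate 3.

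Taken as a share of all counts in a library, the 57 members held 2.56%, 2.55% and 2.57% in the DMSO libraries and 2.04%, 2.02% and 2.02% in the MPM-1 libraries. Every MPM-1 share was lower, and the spread within a group was small beside the difference. These shares use unscaled library totals, and with library size alone the typical (median) gene of the table was itself at -0.18 on the log2 scale. Computed over counts without the mitochondrial DNA-encoded genes, the means were 2.80% and 2.07%. Lower glycolysis with lactate dehydrogenase held 1.504% ± 0.0223 in DMSO and 1.11% ± 0.0250 in MPM-1 (SD, n = 3 each). Upper glycolysis held 0.354% ± 0.00555 and 0.259% ± 0.00755. Carboxylation and malic enzymes went from 0.0353% ± 0.00121 to 0.0588% ± 0.00174, the highest rise among the 8 groups.

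Pyruvate entry fell from 0.0575% ± 0.00405 to 0.0382% ± 0.00286 of the counts. The pentose phosphate share of unscaled totals averaged 0.217% ± 0.0111 in DMSO and 0.200% ± 0.00485 in MPM-1. With TMM scaling 4 of its 6 genes rose. TKT alone had more CPM than the other genes of the group together in both treatments. Whether TKT or the scaling lowered the share was not tested. For the share of summed FPKM, the pentose phosphate libraries of the 2 treatments overlapped. The transport and PFKFB shares overlapped on either scale. Without 1 library, the log2 ratio of shares lay between -0.22 and -0.17 for the TCA cycle group. It lay between -0.14 and -0.07 for pentose phosphate. Both ranges are close to or above the -0.18 of the typical gene with library size alone. Upper glycolysis (-0.47 to -0.43), lower glycolysis (-0.45 to -0.42) and pyruvate entry (-0.65 to -0.55) lay below it. How much of each lower share came from the scaling was not tested.

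**Figure D3:**
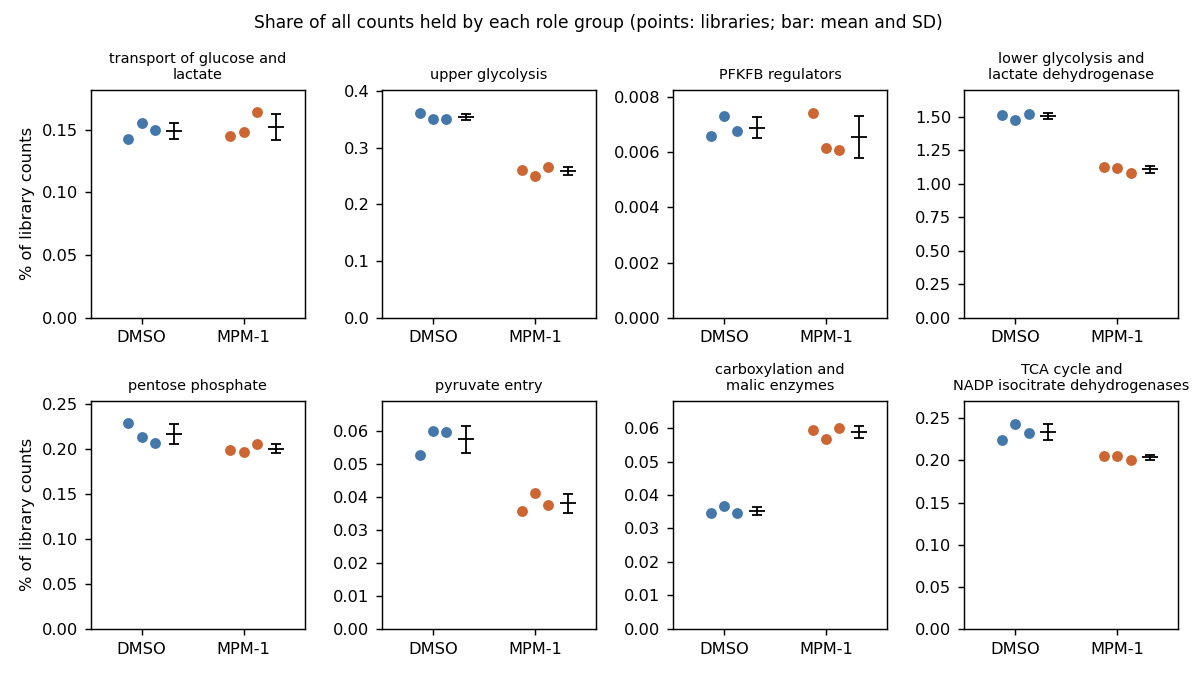
Percent of all counts of a library held by each of the 8 role groups (vertical axes, from 0) in the 3 DMSO and 3 MPM-1 libraries, with the mean and SD. Upper and lower glycolysis, pentose phosphate, pyruvate entry and the TCA cycle group are lower in every MPM-1 library, carboxylation and malic enzymes are higher, and transport and the PFKFB regulators overlap. Totals are unscaled, and with library size alone the typical (median) gene was at -0.18 on the log2 scale.

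Ratios of 2 genes within a library do not depend on its depth. For 18 pairs of isoenzymes or partners, ratios of FPKM (fragments scaled by transcript length and sequencing depth) were compared. Ratios of CPM can differ from them, because the counts per FPKM of a member varied between libraries (0.778 to 1.405 of its median). The groups did not overlap for 16 pairs, and the log2 ratio differed by at least 1 for 4. CPM of single genes did not overlap for 82.5% of the members and 64.3% of all genes. The share over other pairs of genes was not computed, so the 16 pairs have no background of their own. An exact two-sided permutation test of 3 against 3 libraries cannot go below p = 0.1, which all 16 of these pairs reached, with a Benjamini-Hochberg adjusted value of 0.1125 over the 18 pairs, so no ratio can pass a threshold of 0.05 by this test. The ratio of SLC2A3 to SLC2A1 was 0.0468, 0.0299 and 0.0310 in DMSO and 0.252, 0.192 and 0.217 in MPM-1. Every MPM-1 ratio was higher, by 2.64 on the log2 scale between means. The ratio of IDH2 to IDH1 was 0.381, 0.323 and 0.312 in DMSO and 0.0598, 0.0615 and 0.0642 in MPM-1. It fell by 2.45 on the log2 scale, the largest decrease among the 18 pairs.

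The ratio of ALDOC to ALDOA was 0.0887, 0.0925 and 0.0910 in DMSO and 0.0536, 0.0347 and 0.0388 in MPM-1, a log2 difference of -1.12. Without 1 of the 6 libraries it lay between -1.31 and -0.99. The ratio of PCK2 to PC was 4.38, 3.71 and 3.06 in DMSO and 7.87, 6.67 and 7.70 in MPM-1. Its log2 difference was 1.01, and between 0.88 and 1.13 without 1 library. As ratios of CPM, PCK2 over PC differed by 0.98 and PFKFB2 over PFKFB3 by 1.04, so which pairs reach 1 depends on the scale. ME2 over ME1 differed by -0.65 as a ratio of FPKM and by -0.91 as a ratio of CPM. HK2 over HK1 (0.97), PFKFB2 over PFKFB3 (0.87) and SUCLA2 over SUCLG2 (0.86) came next upward, and MPC2 over MPC1 (-0.85) and PDK3 over PDK2 (-0.77) downward. PFKFB3 over PFKFB4 and MDH2 over MDH1 overlapped between the treatments (exact permutation p = 0.2 for both).

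**Figure D4:**
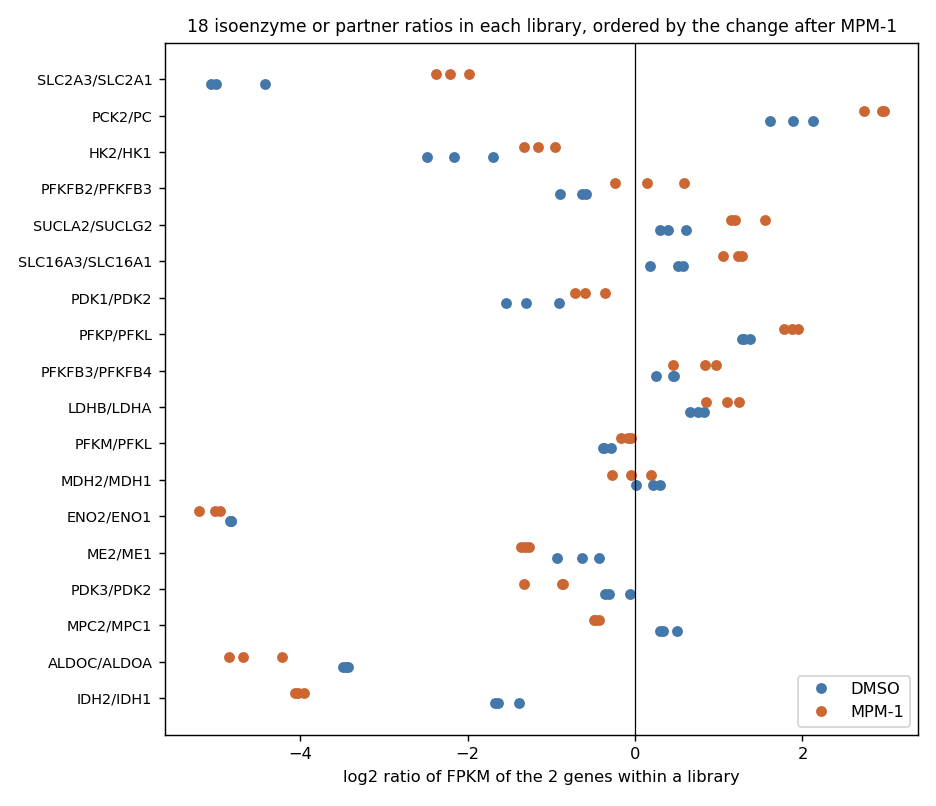
Log2 ratio of the FPKM of 2 genes within a library (horizontal axis) for 18 pairs in the 3 DMSO and 3 MPM-1 libraries, ordered by the difference between treatments. SLC2A3/SLC2A1 is at the top with a difference of 2.64 and IDH2/IDH1 at the bottom with -2.45. No overlap between treatments is seen for 16 of the 18 pairs, and CPM of single genes did not overlap for 64.3% of all genes.

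On the length-scaled FPKM scale, which allows levels of different genes to be set side by side, the members ranked high in these cells. Their median was 52.6 FPKM in DMSO and 48.7 FPKM in MPM-1, compared with 7.60 and 6.70 FPKM over all genes. GAPDH was the highest member in both treatments, at 3932 FPKM in DMSO and 3225 FPKM in MPM-1. In DMSO it was followed by PKM (1209 FPKM), ENO1 (1019.9 FPKM), ALDOA (1002 FPKM) and LDHB (835 FPKM). In MPM-1 the order after GAPDH was ENO1 (789 FPKM), ALDOA (759 FPKM), LDHB (664 FPKM) and PKM (634 FPKM), so PKM moved from the second to the fifth place. The lowest members were PDK1 in DMSO (2.41 FPKM) and PDK3 in MPM-1 (1.87 FPKM). SLC2A3 went from place 51 to 26 of the 57 with mean levels of 7.42 and 51.1 FPKM, IDH1 from 18 to 10 (110.0 and 259 FPKM) and ME1 from 36 to 21 (34.1 and 82.1 FPKM). IDH2 went from place 33 to 46 (37.0 and 16.02 FPKM) and ALDOC from 21 to 34 (90.8 and 32.3 FPKM). FPKM values are scaled differently from the CPM, so the ratio of a gene between treatments differs between these scales.

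**Figure D5:**
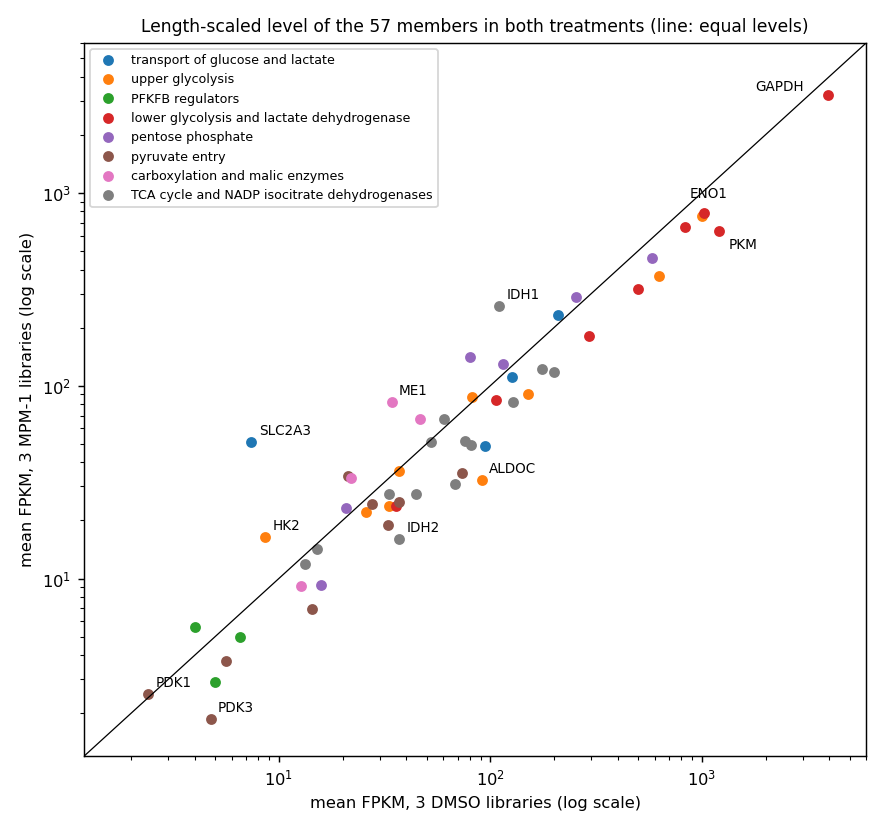
Mean FPKM of the 57 members in 3 DMSO (horizontal axis) and 3 MPM-1 libraries (vertical axis), both on log scales, coloured by role group, with a line of equal levels. SLC2A3 (7.42 against 51.1), IDH1 (110.0 against 259) and ME1 (34.1 against 82.1) lie above the line, IDH2 and ALDOC below it, and GAPDH is the highest in both.

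Other genes of the same pathways were taken from a list of 68, of which 59 were in the table. Of these, 14 rose, 22 fell and 23 did not pass at an adjusted p under 0.05, which is 23.7% and 37.3% beside the 27.7% and 28.8% of all genes. DEGs were 1 higher and 7 lower, together 13.6% of the list beside 14.3% of all genes. The lowest were TXNIP (log2 fold change -3.89) and ARRDC4 (-3.21), arrestin-family proteins that restrain glucose uptake, the cytosolic carboxykinase PCK1 (-3.28) and the prolyl hydroxylase EGLN3 (-2.79). TXNIP had 143, 147 and 141 CPM in DMSO and 11.2, 10.2 and 7.68 CPM in MPM-1 (edgeR adjusted p = 1.09e-07), with the groups far apart. The highest that passed were EPAS1, which encodes HIF-2α (1.27), the hexokinase HKDC1 (0.93), BSG, the chaperone of the lactate carriers (0.73), and PDK4 (0.57). Some of these genes were at low levels. HKDC1 averaged 0.56 FPKM in DMSO and 0.96 FPKM in MPM-1, and PCK1 had 12 to 41 counts in the MPM-1 libraries. The CPM of PDK4 overlapped between the treatments (edgeR adjusted p = 0.0338). BSG had 911, 802 and 748 CPM in DMSO and 1453, 1229 and 1395 CPM in MPM-1 (edgeR adjusted p = 0.000148), higher in every MPM-1 library while its partner SLC16A1 was lower in each. Without DMSO replicate 3, 7 genes of the list rose in place of 14.

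RefSeq promoter windows, from 250 bases before to 50 bases after a start, were at hand for 53 of the 57 members and for 9595 genes of the table. OGDH, PFKFB2, SLC16A1 and SLC2A3 had no window. Letters were searched on both strands, and a gene counted when any of its windows held them. The E-box CACGTG was found for 8 members (15.1%, against 12.8% of the genes with a window): HK2 among those that rose, ALDOA, ALDOC, LDHA, PDHB and PDK2 among those that fell, and GAPDH and PFKFB3, which did not pass. ACGTG, the core of the hypoxia response element, which every CACGTG also contains, was found for 22 members (41.5% against 32.4%), and GCGTG for 34 (64.2% against 58.7%). TGACTCA was found for ENO2, HK1 and ME1 (5.66% against 4.85%) and TGATGCAA, an amino acid response element, for HK1 alone (1.89% against 0.677%). TGACNNNGC, added after the values were seen, was found for 12 members (22.6% against 19.5%), of which IDH1, ME1, MPC1, PGD and RPE rose and ALDOC, PFKL, PKM and SUCLG1 fell. A match is a description of the letters only, and each share was read beside that of all genes without a test.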

How the data were processed

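mRNA libraries of SW480 cells, 3 treated with DMSO and 3 with MPM-1, were sequenced. The table deposited by the authors holds raw read counts and FPKM per gene and library, and their own log2 fold changes and FDR, which were not used. Submitters' notes name HISAT2, DESeq2 and the mouse build mm10, whereas identifiers are human: 12127 of 12982 match GENCODE 29 (GRCh38), and 855 rows without such an identifier have no position here. The counter, annotation and filter are not given in the sources used here, and the lowest total of a gene is 115 counts. Counts were tested without a filter with edgeR 4.0.16 (R 4.3.3; TMM, quasi-likelihood test, Benjamini-Hochberg adjustment over all genes). Alternatives were DESeq2 1.42.0, its size factors, library size alone, TMM without mitochondrial DNA-encoded genes, a mean of at least 50 counts, a replicate block, leaving out each library, and limma 3.58.1 on log2(FPKM + 1) or log2(FPKM + 0.1) with a mean of at least 1 FPKM, and on log2(FPKM + 1) without a filter. Per-library values were given for the 7 DEGs, the highest and lowest member of each role group, GAPDH, PKM, LDHA and CS. They were also given for pairs whose log2 ratio differed by at least 1. Per-library values of PDHB, FH, TXNIP, BSG, SDHA and GPD2 were added after they were seen. The same holds for the log2 fold changes of PDHX, PDP1, PDP2 and PDPR. From the other pathway genes, the 4 highest and 4 lowest that passed were named. Members and lists were chosen with earlier results of these data known. Scripts were tested on simulated data.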

Additional observations from a re-analysis of the deposited data

How the results depend on the processing

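With library size alone, 6 members were lower DEGs, and 9 rose and 36 fell at an adjusted p under 0.05. Of the other pathway genes 6 rose, the member median was -0.38 and the median of all genes moved from -0.026 to -0.18. Higher DEGs were 3 with that scaling and in each of 3 limma fits to FPKM, as HK2 was lost. With limma on log2(FPKM + 1), log2(FPKM + 0.1) and log2(FPKM + 1) without a filter, lower DEGs were 5, 6 and 5, members that rose 9, 9 and 9, other pathway genes that rose 5, 5 and 6, and the member median -0.35, -0.37 and -0.35. The median of the 4 carriers turned from 0.09 to -0.0581 with library size alone and to -0.01 with limma on log2(FPKM + 1). HK1 turned to -0.0416 with library size alone and to -0.0388, -0.0396 and -0.0388 in the 3 limma fits, and IDH3G to -0.0846, -0.0488, -0.0497 and -0.0488. Without 1 library MPC2 lay between -0.0426 and 0.050 and OGDH between -0.0786 and 0.026, each above 0 only without MPM-1 replicate 3, and IDH3A between -0.0943 and 0.0363, above 0 only without DMSO replicate 2 (0.0074) or MPM-1 replicate 2. The log2 ratio of the module's share of counts was -0.34, and it was -0.27 for summed FPKM and -0.44 without mitochondrial DNA-encoded genes. Leaving out 1 library gave 4 to 5 higher and 2 to 5 lower DEGs, 14 to 15 members that rose, 25 to 29 that fell, 7 to 13 and 16 to 22 of the other pathway genes that rose and fell, a member median of -0.26 to -0.19 and a share ratio of -0.34 to -0.33. DESeq2, with its own test or its size factors alone, lost LDHB and PC. TMM without mitochondrial DNA-encoded genes and the filter at 50 counts changed the direction or call of no member. Apart from the construction of each setting, the cause of these changes was not tested.

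Over all genes no pairing by replicate number was seen. Deviations of same-numbered libraries correlated at 0.021, 0.114 and -0.074, and not every library correlated best with its own number. Weak correlations over all genes cannot show whether same-numbered libraries were handled together. A single gene, GPD2, was low in replicate 3 of both treatments. With the replicate block 14 members rose and 27 fell, PFKP, LDHB and PC no longer passing, and DEGs stayed at 4 and 3. With 3 libraries per group, member log2 fold changes had a median standard error of 0.0819, beside 0.125 for all genes. The smallest member log2 fold change in size that passed was -0.18 (LDHB).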

Other observations

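Succinate dehydrogenase, which links the TCA cycle to the respiratory chain, and some enzymes of glutamate and aspartate were no members of the module and are given here as values, named after these were seen. The 4 subunit genes of succinate dehydrogenase fell, SDHA by 1.00 on the log2 scale (edgeR adjusted p = 1.12e-05) and SDHB, SDHC and SDHD by 0.24, 0.38 and 0.29. SDHA had 196, 181 and 174 CPM in DMSO and 93.2, 85.8 and 97.2 CPM in MPM-1, with no overlap. The glutamate dehydrogenase GLUD1 rose by 0.36. Of the aspartate aminotransferases of the malate-aspartate shuttle, the cytosolic GOT1 rose by 0.29 and the mitochondrial GOT2 fell by 0.71.

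GPD2, the mitochondrial glycerol-3-phosphate dehydrogenase, had 23.8, 22.8 and 3.94 CPM in DMSO and 30.1, 24.6 and 3.34 CPM in MPM-1. Replicate 3 of both treatments was far below the other libraries, and the log2 fold change was 0.20 (SE 0.73, edgeR adjusted p = 0.834).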
